A study of Mus musculus with 6 samples.

Results

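The genes followed here carry the gonadotropin signal from the cell surface to protein kinase A, and were measured in mouse cumulus-oocyte complexes before and after an ovulatory hormone stimulus. They were the receptor genes Fshr and Lhcgr, the kinase subunit genes Prkar1a, Prkar2a, Prkar2b, Prkaca and Prkacb, and Rgs2, a regulator of G protein signalling. The 8 genes were chosen by name. A probe set, a group of short array probes summarised as 1 value, was assigned to a gene where the platform annotation gave that gene as its only symbol. This yielded 20 of the 45037 non-control probe sets, for 7 of the 18193 genes named in this way. No probe set was named for Lhcgr in that annotation, so the LH receptor gene was not analysed here. Of the 20 probe sets, 16 had a mean log2 value over the 6 arrays above the 40th percentile of all probe sets, 5.62, and were tested. The 4 dimmer ones belonged to Prkar1a (1), Prkar2a (1) and Prkacb (2), and each of the 7 genes kept at least 1 tested probe set.

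Each of the 6 arrays carried biotin-labelled RNA from a pool of complexes, that is, oocytes with the cumulus granulosa cells around them. All groups were wild-type, immature females that had received eCG, which drives follicle growth, for 48 h, so no group lacked gonadotropin treatment. The 3 groups of 2 arrays received no hCG, hCG for 8 h or hCG for 16 h, where hCG stands in for the LH surge that triggers ovulation. The labels give no strain, age, dose or number of pooled animals. They place the complexes without hCG in the ovary and those of both later times in the oviduct, so the collection site and the hormone cannot be told apart. The oviduct label of the 8 h complexes is uncertain, since ovulation usually comes later. If they came from ovaries, the site went with 16 h instead. Expanded is the word the labels use for complexes without hCG. However, the markers of cumulus expansion Has2, Ptx3, Tnfaip6 and Ptgs2 had an average log2 value of 5.64 to 5.79 on those arrays and of 10.60 to 10.86 at 8 h. Whether replicates are separate collections is not said, so each p-value reflects the spread between these arrays alone, which may be technical.

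FSH and LH bind receptors that couple to the stimulatory G protein, which activates adenylyl cyclase and raises cAMP. Protein kinase A is held inactive as a complex of regulatory and catalytic subunits, and cAMP binding to the regulatory subunits frees the catalytic ones. The type I regulatory subunits (RIα from Prkar1a, RIβ from Prkar1b) are mostly soluble, while the type II subunits (RIIα from Prkar2a, RIIβ from Prkar2b) are mostly held at membranes and the cytoskeleton by A-kinase anchoring proteins. In the follicle, FSH acting through this route drives granulosa cell growth and oestrogen synthesis, and cAMP in the oocyte holds meiosis arrested until the LH surge.

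Promoter sequences are shown for the receptor gene that fell at both steps and for a kinase gene and a signalling regulator that were higher at 8 h, since cAMP acts on many genes through the cAMP response element (CRE) and the Fshr promoter is known for its E-box. Each is the 250 bases before a RefSeq transcript start in the GRCm38.p6 build, written 5′ to 3′ on the gene's strand, with the motifs found in capitals. The motifs searched on both strands were the full CRE TGACGTCA, the CRE core TGACG, which also lies inside the full CRE on each strand, and the E-box CACGTG. The Fshr window is chr17:89200676-89200925 (minus strand), the Rgs2 window chr1:144004150-144004399 (minus strand), and the Prkar1a window chr11:109650699-109650948 (plus strand), which is 1 of 6 annotated Prkar1a starts.
Fshr: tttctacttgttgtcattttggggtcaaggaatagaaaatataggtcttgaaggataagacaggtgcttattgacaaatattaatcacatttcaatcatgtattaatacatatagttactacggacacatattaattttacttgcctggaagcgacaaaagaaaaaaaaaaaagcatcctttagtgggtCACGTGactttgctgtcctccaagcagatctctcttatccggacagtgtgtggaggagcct
Rgs2: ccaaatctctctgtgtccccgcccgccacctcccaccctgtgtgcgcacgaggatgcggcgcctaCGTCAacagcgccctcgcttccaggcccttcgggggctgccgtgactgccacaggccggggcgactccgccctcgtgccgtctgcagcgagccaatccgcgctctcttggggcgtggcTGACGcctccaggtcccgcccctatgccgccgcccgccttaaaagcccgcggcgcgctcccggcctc
Prkar1a: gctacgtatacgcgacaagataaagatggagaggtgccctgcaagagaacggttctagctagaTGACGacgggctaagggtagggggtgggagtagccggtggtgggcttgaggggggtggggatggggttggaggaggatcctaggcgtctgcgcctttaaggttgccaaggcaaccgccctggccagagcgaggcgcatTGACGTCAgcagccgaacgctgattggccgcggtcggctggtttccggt
The Fshr window held an E-box whose first base lay 61 bases before the start, and no CRE core. The Rgs2 window held CRE cores at 185 and 67 bases before the start. The Prkar1a window held a full CRE at 49 bases and a separate core at 187 bases. Over all 32851 RefSeq promoter windows of this length, 1.55% held the full CRE, 17.8% the CRE core and 6.02% the E-box. Among the 17 windows of the 8 genes, 1 held the full CRE, 6 the core (in Prkar1a, Prkaca, Prkacb and Rgs2) and 4 the E-box (in Fshr, Prkar1a, Prkar2b and Prkaca). The genes shown were picked by their changes, and the Prkar1a window shown is the 1 that held the full CRE. Its core at 187 bases is also counted in an overlapping Prkar1a window. Prkacb, which was not called in any comparison, held a core too. Whether the motifs go with the changes was not tested. A match describes the letters of the window, and binding was not measured.

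The deposited values were log2 intensities with array medians from 6.14 to 6.27. Pearson's r across probe sets was 0.991 to 0.996 between arrays of a group and 0.943 to 0.978 between groups. Markers of other cells moved with the groups. All 9 tested oocyte markers fell at 8 h, with an array average of 11.21 to 11.35 without hCG, 8.94 to 9.05 at 8 h and 8.78 to 9.07 at 16 h. The near-equal later averages hide opposite changes. Between 8 h and 16 h 4 of the 9 rose and 3 fell, among them Bmp15 (1.33) and Zp2 (−2.17). Leukocyte markers rose between 8 h and 16 h in 8 of 9 cases, from an average of 7.11 to 7.26 to one of 9.09 to 9.19. Of these 8, Ptprc averaged 5.14 without hCG, 5.22 at 8 h and 7.81 at 16 h. It passed the limit for testing with the help of its 16 h values, so its call was favoured by the filter. Oviduct epithelium markers averaged 8.48 to 8.87 without hCG and 7.75 to 7.92 at 8 h, and 4 of 5 rose by 16 h, when the average was 9.96 to 10.20. Markers of cumulus granulosa cells fell at 8 h in 3 of 4 cases, from an average of 10.34 to 10.42 to one of 8.56 to 8.63, with none called between 8 h and 16 h. Theca and stroma markers averaged 8.03 to 8.10, then 6.81 to 7.15, then 6.09 to 6.11, with 3 of 4 fallen at 8 h and 2 of 4 between 8 h and 16 h. Genes listed as mural granulosa markers averaged 9.11 to 9.43, then 10.72 to 10.84, then 9.04 to 9.13. At 8 h 2 of 3 rose and 1 fell, and between 8 h and 16 h 2 of 3 fell. The average followed mainly Cd34, which changed by 4.81 at 8 h and by −4.74 between 8 h and 16 h. Cyp11a1 changed by 1.89 and 0.19, and Nppc by −2.17 and −0.54. Whether Cd34 marks mural granulosa cells in these complexes was not measured. Among all genes tested, 16.9% rose and 20.5% fell at 8 h, and 11.8% rose and 9.12% fell between 8 h and 16 h. Of 5 endothelial markers 2 were tested. Cdh5 averaged 5.48 without hCG, 8.34 at 8 h and 8.44 at 16 h. It passed the limit for testing with the help of its later values, so no call is given for it. Kdr was not called at 8 h (0.28, limma adjusted p = 0.185), but was higher at 16 h than without hCG (0.49, limma adjusted p = 0.0244). The part of these shifts in the results that follow was not tested, and in pooled complexes fewer cells of a type cannot be told apart from less RNA per cell.

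By 8 h after hCG, the FSH receptor gene and Prkar2a were lower, while Prkar1a, Prkaca and Rgs2 were higher. The Prkar2a call was lost with the mean over its probe sets (−0.09, limma adjusted p = 0.623). Between 8 h and 16 h, Fshr fell further and Prkar2b fell, and none of the 7 genes rose. Rgs2 was not called in this interval by its probe set of highest mean, but fell with the mean over its probe sets (−0.79, limma adjusted p = 0.00324). At 16 h the balance against no hCG was Fshr, Prkar2a and Prkar2b lower and Prkar1a and Prkaca higher. A gene was called when its Benjamini-Hochberg adjusted p from limma, over 27022 probe sets, was under 0.05, and each gene was read from its tested probe set of highest mean.

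At 8 h against no hCG, 3 of the 7 genes rose, 2 fell and 2 were not called. Among all 13559 genes tested, 16.9% rose and 20.5% fell. The median log2 change was −0.25 over the 7 genes and −0.02 over all genes. By probe set, 7 of the 16 rose and 4 fell, beside 33.9% of all tested probe sets called in either direction. At 16 h against 8 h, 2 of 7 genes fell and 5 were not called, where 11.8% of all genes rose and 9.12% fell. Of the 16 probe sets 7 fell and 9 were not called, against 18.2% of all probe sets called, and the 7 genes had a median change of −0.25 against 0.01 over all genes. At 16 h against no hCG, 2 genes rose and 3 fell, with 20.8% of all genes called in each direction. Of the 16 probe sets 3 rose and 5 fell, with 37.3% of all probe sets called, and the medians were −0.28 and −0.02. The 3 comparisons share arrays, so their values are given side by side and were not tested for agreement. The 8 h count depended on single arrays, being 3 genes without no hCG replicate 1 and 2 genes without 8 h replicate 2. The count for 16 h against 8 h was 1 gene without 8 h replicate 2 or without either 16 h array.

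**Figure D1:**
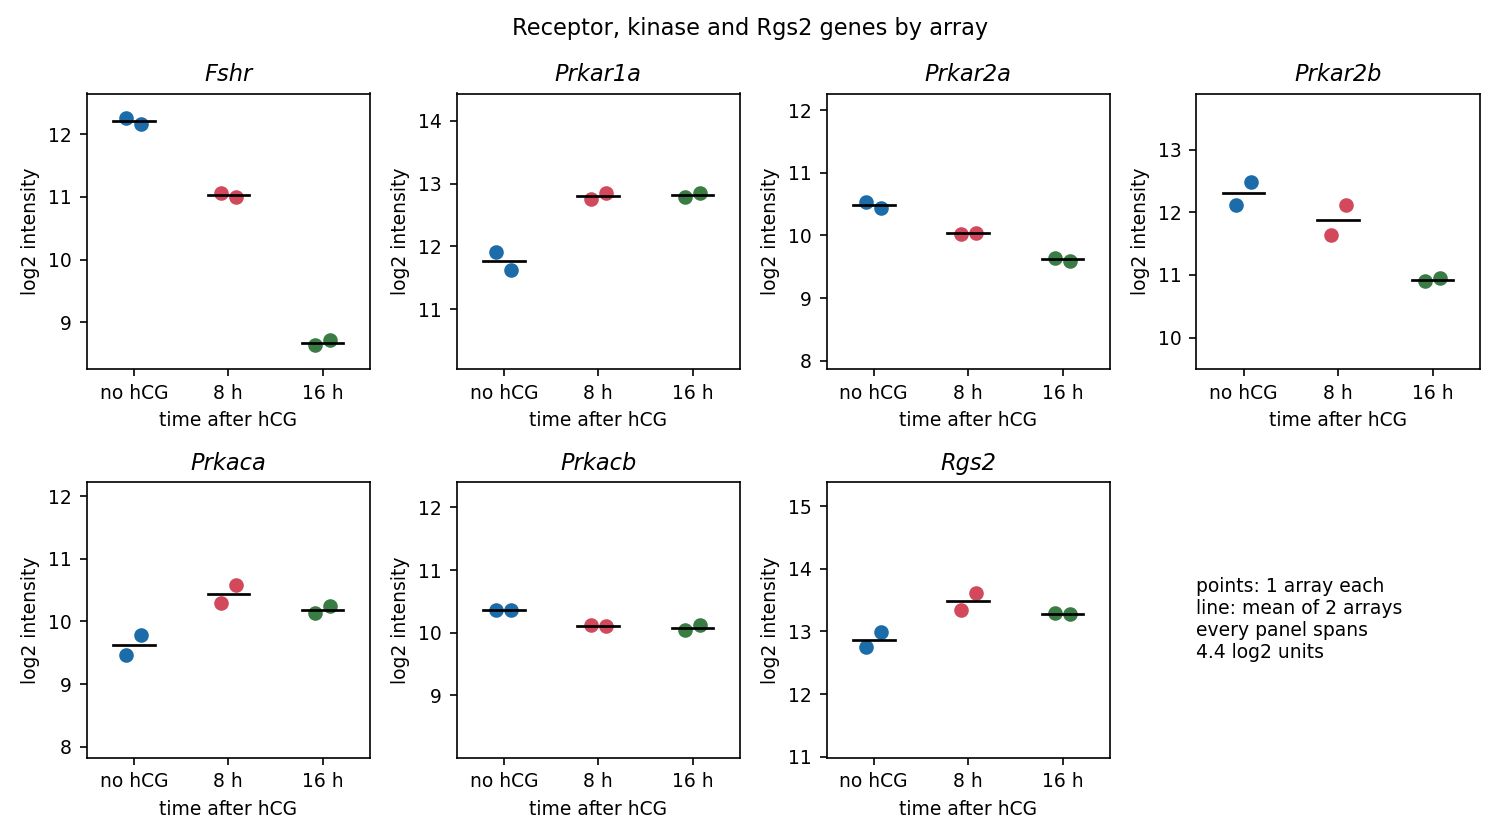
Log2 intensity of the 7 measured genes (y axis, each panel with its own level but the same span) for complexes without hCG, at 8 h and at 16 h after hCG (x axis). Points are single arrays and lines are means of 2 arrays. Fshr steps down at each time, Prkar1a steps up at 8 h and stays there, and Prkar2b is lowest at 16 h.

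Fshr, the FSH receptor gene, had the largest fall of the 7 genes in each comparison. Its log2 values were 12.26 and 12.16 without hCG, 11.07 and 10.99 at 8 h, and 8.63 and 8.72 at 16 h. The 3 groups did not overlap, and within each group the arrays lay close together. The fall was −1.18 ± 0.15 (SE) at 8 h (limma adjusted p = 0.000213), which is 2.27-fold, and a further −2.36 ± 0.15 between 8 h and 16 h (adjusted p = 1.19e-05), or 5.12-fold. Against no hCG the level at 16 h was 11.6-fold lower (−3.54 ± 0.15, adjusted p = 3.51e-07). Of the 13559 genes, 1056 had a lower change than Fshr at 8 h, 76 between 8 h and 16 h, and 63 over the whole course, so Fshr lay further into the tail in the later interval. All 15 alternative settings kept each of these 3 calls. Fshr rests on a single probe set, 1450810_at. Cumulus granulosa and theca and stroma markers also fell at 8 h. Over the later interval theca and stroma markers fell again, Col1a2 by 1.55 and Dcn by 1.04 on the log2 scale. Of 3 genes listed as mural granulosa markers, Cd34 fell by 4.74 and Nppc by 0.54 in that interval, and Cyp11a1 was not called. Leukocyte and oviduct markers rose, oocyte markers changed in both directions and no cumulus granulosa marker was called.

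The 5 genes with the most similar course to Fshr were Pclaf, Fosb, Nnat, Plxnc1 and Aldh1a1, by the root mean square difference of the 6 array values after each gene's mean was subtracted, among 13558 other genes. Pclaf, which encodes a protein that binds the replication clamp PCNA, was nearest with a difference of 0.13 log2 units. It changed by −1.32 at 8 h and −2.15 between 8 h and 16 h. The next, Fosb, a subunit of the AP-1 transcription factor, differed by 0.24, with changes of −0.83 and −2.38. Nnat (0.25), Plxnc1 (0.26) and Aldh1a1 (0.28) followed.

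Prkar1a encodes RIα, the widely expressed type I regulatory subunit. Its log2 values were 11.91 and 11.62 without hCG, 12.75 and 12.86 at 8 h, and 12.78 and 12.85 at 16 h. Both later groups lay above both arrays without hCG and overlapped each other. The rise was 1.04 ± 0.16 at 8 h, or 2.05-fold (limma adjusted p = 0.000823), and 1.05 ± 0.16 at 16 h (adjusted p = 0.000683). Between 8 h and 16 h the difference was 0.01, with a 95% interval from −0.35 to 0.38 (adjusted p = 0.974). A second Prkar1a probe set, 1452032_at, read 9.72 and 10.06, then 10.28 and 10.34, then 10.13 and 10.23. Its differences from no hCG, 0.42 ± 0.17 at 8 h (adjusted p = 0.0829) and 0.29 at 16 h (adjusted p = 0.218), were not called. With the mean over its 3 named probe sets, dim one included, Prkar1a still rose at 8 h, by 0.41 (adjusted p = 0.0212), and was 0.38 higher at 16 h (adjusted p = 0.0268). The size of the Prkar1a rise therefore differed between its 2 tested probe sets. The dim one, 1447635_at, was not tested and changed by −0.22 at 8 h and −0.19 at 16 h against no hCG. The probe sets' transcript coverage was not examined here.

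Prkar2b, whose product RIIβ is the type II subunit known to accumulate in granulosa cells under FSH, had log2 values of 12.12 and 12.48 without hCG, 11.64 and 12.11 at 8 h, and 10.90 and 10.95 at 16 h. The group at 16 h lay below all other arrays, while the upper array at 8 h nearly met the lower one without hCG. The fall between 8 h and 16 h was −0.95 ± 0.20 (limma adjusted p = 0.0094), and against no hCG it was −1.38 ± 0.20, or 2.60-fold (adjusted p = 0.000474). The difference at 8 h was −0.43, with a 95% interval from −0.88 to 0.02 (adjusted p = 0.135). Its other probe sets, 1438664_at and 1430640_a_at, were called at every step. They changed by −0.61 (adjusted p = 0.0306) and −0.51 (adjusted p = 0.0387) at 8 h, and by −1.25 and −1.03 between 8 h and 16 h. Over the whole course the 3 probe sets fell by between 1.38 and 1.86 on the log2 scale. The 8 h difference was called after quantile normalization (adjusted p = 0.0435), and the later fall of 1456475_s_at lost its call without 8 h replicate 2 (adjusted p = 0.0955), 16 h replicate 1 (0.0803) or 16 h replicate 2 (0.0704).

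Prkar2a encodes RIIα, the other type II subunit. The values of 1452915_at were 10.53 and 10.43, then 10.02 and 10.05, then 9.63 and 9.60, in the order no hCG, 8 h and 16 h, and the groups did not overlap. The change at 16 h against no hCG was −0.86 ± 0.15, a 1.82-fold fall (limma adjusted p = 0.00127). The fall at 8 h was smaller, at −0.45 ± 0.15 (adjusted p = 0.0411), and the difference between 8 h and 16 h, −0.42 with a 95% interval from −0.75 to −0.09, was not called (adjusted p = 0.0841). The Prkar2a probe sets differed. Of the others tested, 1428783_at changed by −0.06 at 8 h and −0.43 over the whole course (adjusted p = 0.0738), and 1432409_at by 0.05 and −0.16, and neither was called in any comparison. The 8 h call was lost in 9 of 15 alternative settings, among them the mean over all 4 named probe sets (−0.09, adjusted p = 0.623), median centring (adjusted p = 0.0724) and the omission of any 1 of the 6 arrays. Against no hCG the 16 h fall with that mean was −0.37 (adjusted p = 0.0337).

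Among the catalytic subunit genes, Prkaca (Cα) had log2 values of 9.47 and 9.78 without hCG, 10.30 and 10.58 at 8 h, and 10.13 and 10.25 at 16 h. All 4 arrays after hCG lay above both without it. The rise was 0.81 ± 0.18 at 8 h, or 1.76-fold (limma adjusted p = 0.0058), and 0.56 ± 0.18 at 16 h (adjusted p = 0.0319). From 8 h to 16 h the difference was −0.25, with a 95% interval from −0.65 to 0.15 (adjusted p = 0.414). The values are from 1447720_x_at, whose suffix marks probes that may match other transcripts, and the second probe set, 1450519_a_at, was also called at both times, with 0.65 at 8 h (adjusted p = 0.0113) and 0.48 at 16 h (adjusted p = 0.0394). The call at 8 h was lost without 8 h replicate 2 (adjusted p = 0.0683), and that at 16 h without no hCG replicate 1 (0.144) or either 16 h array (0.0893 and 0.153).

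Prkacb (Cβ) was the member for which no comparison was called. Its tested probe set read 10.36 and 10.37 without hCG, 10.13 and 10.10 at 8 h, and 10.04 and 10.13 at 16 h. Both later groups lay below both arrays without hCG, but the differences were small. They were −0.25 at 8 h, with a 95% interval from −0.58 to 0.08 (limma adjusted p = 0.238), and −0.28 at 16 h, with an interval from −0.61 to 0.05 (adjusted p = 0.173). The intervals leave out a change of 1 log2 unit in either direction, but not a smaller fall. The dim Prkacb probe sets, 1420610_at and 1457197_at, were not tested and changed by 0.33 and −0.32 at 8 h.

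**Figure D2:**
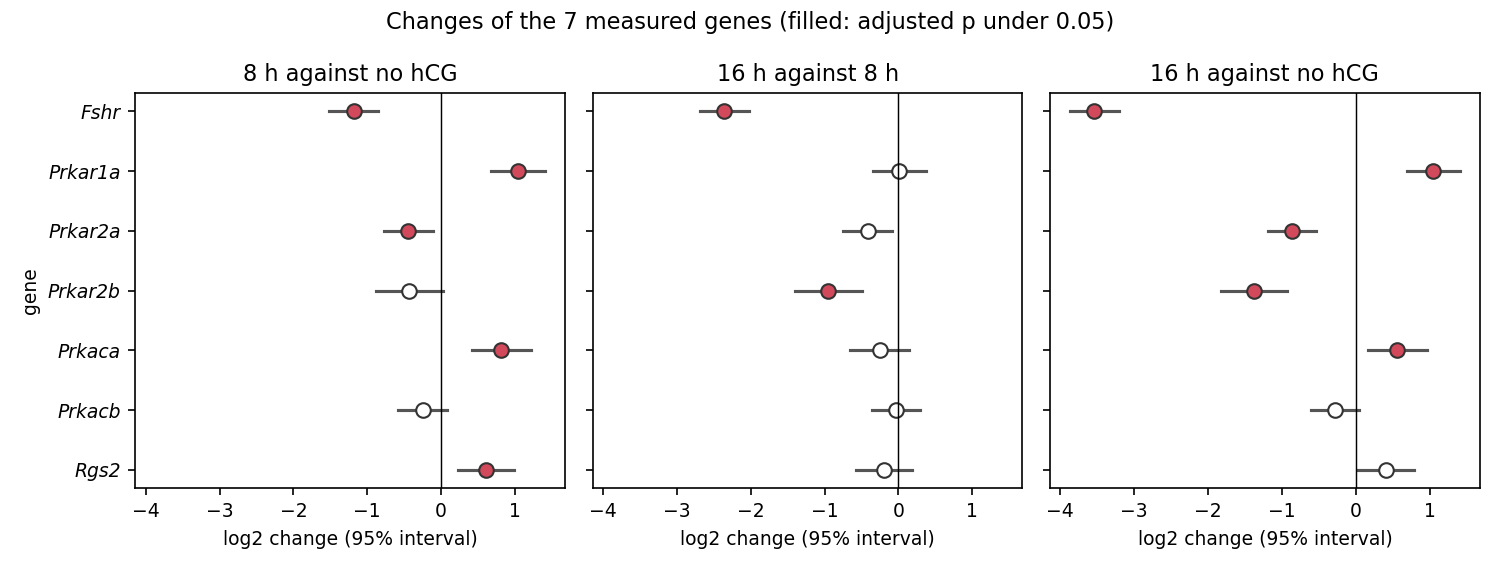
Log2 change of each measured gene (x axis, with 95% interval from the limma fit) in the 3 comparisons, 2 arrays per group. Filled points passed an adjusted p of 0.05. Fshr lies farthest to the left in every panel, and Prkar1a and Prkar2b lie on opposite sides of 0 at 16 h against no hCG.

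Since the type I and type II subunit genes moved apart, the difference between genes was also read within each array, relative to its mean without hCG. These pairs were chosen after the values were seen, and no test was made. Prkar1a minus Prkar2b was 0.32 and −0.32 without hCG, 1.65 and 1.28 at 8 h, and 2.42 and 2.44 at 16 h. The mean at 16 h corresponds to a 5.38-fold shift of the Prkar1a to Prkar2b ratio, against 2.76-fold at 8 h. The size depended on the Prkar1a probe set. With 1452032_at in place of 1425550_a_at, the shift was 3.17-fold at 16 h and 1.80-fold at 8 h, and with the mean of each gene's tested probe sets it was 4.79-fold and 2.37-fold. Prkar1a minus Prkar2a averaged 1.49 at 8 h and 1.91 at 16 h, or 3.77-fold at the later time. That value was 2.23-fold with the mean of the tested probe sets and 1.68-fold when the dim ones were included, so the probe sets of highest mean gave the largest shifts of these settings. Prkaca minus Prkacb averaged 1.06 at 8 h and 0.84 at 16 h. With the mean of the tested probe sets it was 0.98 and 0.80, and with the dim ones included 0.81 and 0.59. A ratio of this kind shows that 2 probe sets changed unequally and says nothing of the amount of either subunit protein.

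**Figure D3:**
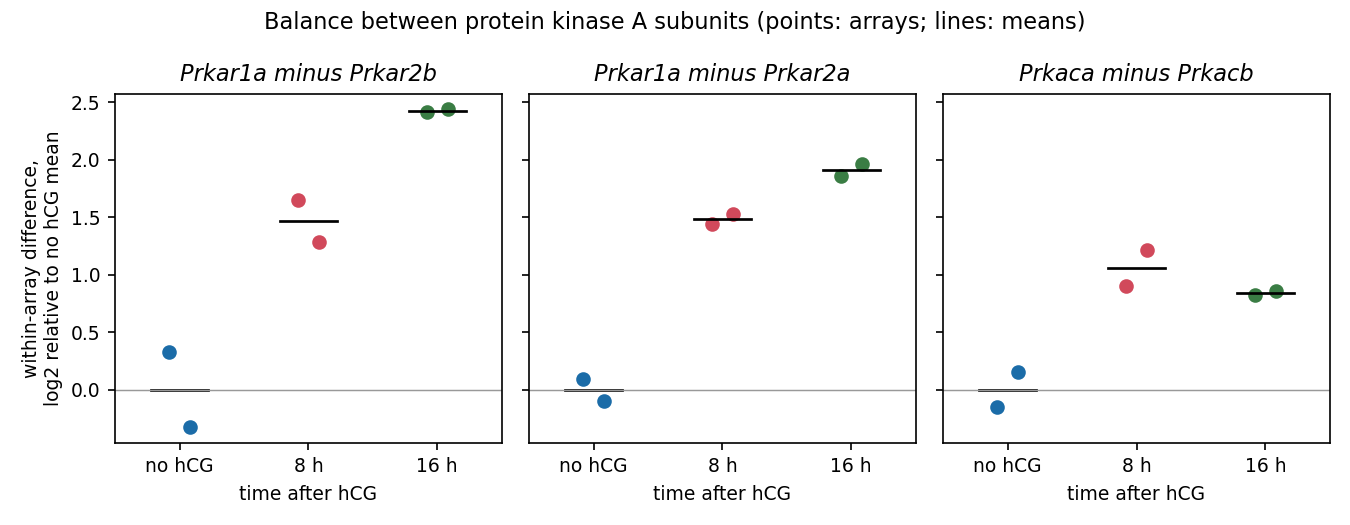
Within-array log2 difference between kinase subunit genes (y axis, relative to its mean without hCG) by time after hCG (x axis). Points are single arrays and lines are means of 2. Prkar1a minus Prkar2b rises from 0 to a mean of 1.47 at 8 h and 2.43 at 16 h.

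Rgs2 encodes an RGS protein that speeds GTP hydrolysis by the G protein Gq and is also known to restrain adenylyl cyclase. The values of its probe set of highest mean, 1419248_at, were 12.75 and 12.99 without hCG, 13.34 and 13.62 at 8 h, and 13.30 and 13.27 at 16 h. The rise at 8 h was 0.61 ± 0.17 (limma adjusted p = 0.0194). At 16 h the difference from no hCG was 0.41, with a 95% interval from 0.04 to 0.79 (adjusted p = 0.0833), and that from 8 h was −0.19 (adjusted p = 0.528).

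The other Rgs2 probe sets gave larger changes and a return by 16 h. Those of 1443250_at were 6.43 and 6.81 without hCG, 8.73 and 8.29 at 8 h, and 6.89 and 6.89 at 16 h. It rose by 1.89 ± 0.20 (limma adjusted p = 6.54e-05), or 3.69-fold, and then fell by 1.62 on the log2 scale (adjusted p = 0.000435). The remaining probe sets, 1447830_s_at and 1419247_at, rose by 0.97 and 0.98 and then both fell by 0.67. All 4 probe sets thus rose at 8 h, 3 of 4 fell between 8 h and 16 h, and none was called at 16 h against no hCG. With the mean over the probe sets the later fall was −0.79 (adjusted p = 0.00324), so whether Rgs2 fell after 8 h depended on the probe set. The 8 h rise of 1419248_at lost its call without no hCG replicate 1 (adjusted p = 0.0802) or 8 h replicate 2 (0.182).

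Nearest to 1419248_at in pattern among 13558 other genes were Wdr37 and Arl1, each at a root mean square difference of 0.04 log2 units, and Gpkow, Zfand3 and Slk, each at 0.05. Wdr37, a WD-repeat gene, changed by 0.66 at 8 h and −0.27 between 8 h and 16 h. Arl1, a small GTPase of the Golgi, changed by 0.57 and −0.21. These genes follow the Rgs2 probe set with the smallest changes, and their likeness to the other Rgs2 probe sets was not measured.

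**Figure D4:**
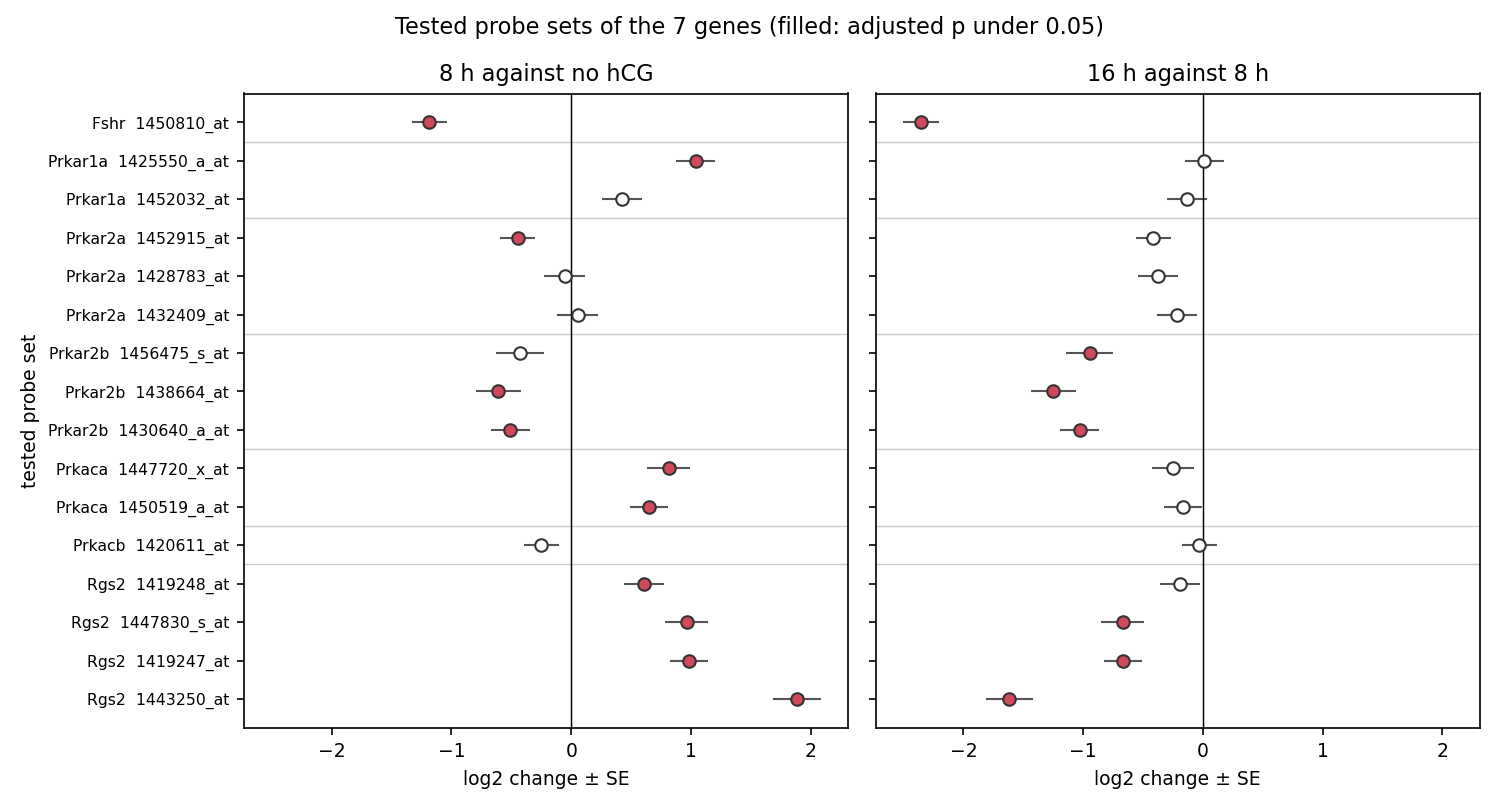
Log2 change ± SE (x axis) of the 16 tested probe sets of the 7 genes (y axis) at 8 h against no hCG and at 16 h against 8 h, from the limma fit on 2 arrays per group. Filled points passed an adjusted p of 0.05. The Prkar2b and Prkaca probe sets lie close together, whereas those of Rgs2 spread from 0.61 to 1.89 at 8 h.

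Other genes of the route were read from 8 lists of 110 genes, picked with earlier results of these data known. The lists are described by counts and by single genes, and no list was tested as a whole. Of the other kinase subunit and inhibitor genes, Prkar1b, which encodes RIβ, had the largest change. Its values were 7.06 and 7.65 without hCG, 10.39 and 9.92 at 8 h, and 10.13 and 9.83 at 16 h. The rise at 8 h was 2.80 ± 0.24 (limma adjusted p = 1.93e-05), and at 16 h the level was 2.62 ± 0.24 above that without hCG. All 5 Prkar1b probe sets rose at 8 h, the other 4 by 0.58 to 1.39, so the probe set of highest mean, which also has a suffix for probes that may match other transcripts, gave the largest rise of the 5. Both genes for type I regulatory subunits were thus higher at 8 h, and neither gene for a type II subunit was. Pkia, which encodes an inhibitor that binds the free catalytic subunit, read 5.46 and 5.93 without hCG, 6.23 and 6.35 at 8 h, and 5.20 and 5.02 at 16 h. Its mean of 5.70 was barely above the limit for testing, which it passed with the help of its 8 h values, so no call is given for it.

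Among all genes tested, 16.9% rose and 20.5% fell at 8 h, and 11.8% rose and 9.12% fell between 8 h and 16 h. Over the whole course 20.8% were called in each direction. Upstream of the kinase, 5 of 17 G protein and adenylyl cyclase genes rose and 2 fell at 8 h, with a median change of 0.29. Gnai1, the inhibitory Gαi1, rose by 1.09 ± 0.16 at 8 h (limma adjusted p = 0.000636) and then fell by 1.64 on the log2 scale (adjusted p = 0.000129). None of the other 16 was called between 8 h and 16 h, and over the whole course 2 rose and 3 fell. Of 5 receptor kinase and arrestin genes, which act on activated receptors, 2 rose at 8 h and none fell, 1 rose and 2 fell between 8 h and 16 h, and 2 rose and 1 fell over the whole course. Grk5, a receptor kinase, rose by 1.40 ± 0.18 at 8 h. Arrb1, or β-arrestin 1, was 2.01 ± 0.15 higher at 16 h than without hCG (adjusted p = 6.17e-06), the opposite direction to Fshr. Among other RGS genes, 2 of 12 rose and 5 fell at 8 h, when Rgs2 rose, and none rose and 4 fell over the whole course. Rgs11 (−2.51), Rgs13 (−2.22), Rgs17 (−1.92) and Rgs3 (−1.68) had the largest falls at 8 h. Between 8 h and 16 h 2 of the 12 rose and 2 fell. Rgs11 and Rgs17 rose again by 1.74 and 1.44, while Rgs12 fell by 1.35 on the log2 scale.

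Around and downstream of the kinase, changes ran in both directions, as they did over all genes. Of all genes tested, 16.9% rose and 20.5% fell at 8 h, and 20.8% were called each way over the whole course. Between 8 h and 16 h 11.8% of them rose and 9.12% fell. Among 13 anchoring protein genes 4 rose and 3 fell at 8 h, with a median of 0.02, and 4 rose and 2 fell over the whole course. Ezr (ezrin, 2.07 ± 0.15) and Akap2 (1.92 ± 0.15) rose, while Akap7 (−1.87 ± 0.24) and Akap12 (−1.75 ± 0.16) fell. Of 13 genes for phosphodiesterases that can hydrolyse cAMP, 3 rose and 3 fell at 8 h, and 3 rose and 4 fell over the whole course. The risers at 8 h were Pde4d (3.69 ± 0.17), Pde1a (2.75 ± 0.25) and Pde4b (2.53 ± 0.23). Between 8 h and 16 h 1 of the 13 rose and 3 fell, among them Pde1a by 1.70 and Pde4d by 0.94 on the log2 scale. Pde7b fell by 1.64 at 8 h and by a further 1.59 by 16 h, on the log2 scale. Among 10 genes for CREB factors, their coactivators and the Epac branch, 3 rose and none fell at 8 h, and none rose and 2 fell between 8 h and 16 h. The largest rise was that of Crem, which encodes cAMP-inducible repressors and activators, at 2.87 ± 0.15 (limma adjusted p = 1.3e-06). The oocyte markers fell at 8 h too, and which cells of the complex carried these transcripts was not measured.

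Granulosa genes known to respond to FSH were mostly lower after hCG, as Fshr was. This list was also picked with earlier results of these data known, so its shared direction with Fshr is no test. Of its 13 genes, Cyp19a1 had no named probe set. Of 12 tested, 8 fell and 1 rose at 8 h, with a median log2 change of −1.67, where 20.5% of all genes fell and 16.9% rose. At 16 h against no hCG 10 had fallen and 1 had risen, with a median of −2.01. In that comparison 20.8% of all genes were called in each direction. Over all genes the median was −0.02 in both comparisons. Inhbb, an inhibin and activin subunit, went from 14.18 and 14.30 without hCG to 11.42 and 11.98 at 8 h and 10.17 and 10.40 at 16 h. Ccnd2, the cyclin D2 gene, fell by 2.54 and Npr2, the receptor for C-type natriuretic peptide, by 2.53 at 8 h, on the log2 scale. Their falls at 8 h were larger than that of Fshr, while between 8 h and 16 h Fshr fell by more than any of the 12. Sgk1, a serum- and glucocorticoid-regulated kinase gene, was the exception, with a rise of 1.93 ± 0.17 at 8 h (limma adjusted p = 2.53e-05) and of 2.51 by 16 h. Between genes these differences were not tested. Amh, Foxl2 and Npr2 of this list are also on the list of 4 tested cumulus granulosa markers, which had a median change of −2.12 at 8 h, and the part of that shift in the fall of this list was not tested.

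**Figure D5:**
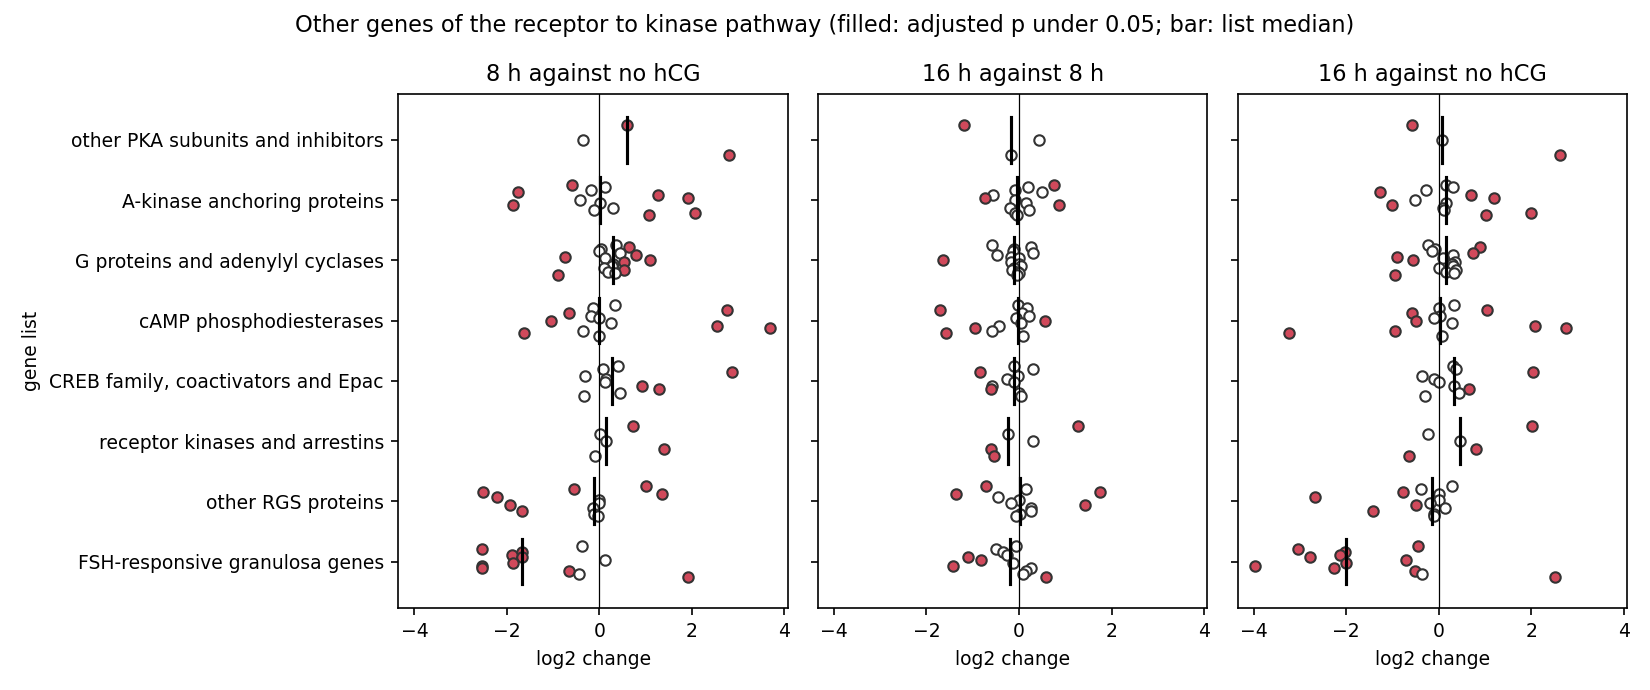
Log2 change (x axis) of the tested genes of the 8 lists (y axis), 1 point per gene, in the 3 comparisons of 2 arrays per group. Filled points passed an adjusted p of 0.05 in the limma fit and black bars are list medians. The FSH-responsive granulosa genes lie mostly to the left of 0, with a median of −1.67 at 8 h, and the other lists spread to both sides.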

How the data were processed

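Transcripts were measured on 6 Affymetrix mouse arrays, 2 per group, assigned by their titles. The authors deposited 1 log2 value per probe set and array, and the scale was read from the values. Software, background correction and normalization are not given in the sources used here, and the signal over background is unknown, so changes of dim probe sets may be understated. Of 45101 probe sets, 64 controls were left out, and 34945 had 1 gene symbol in the platform annotation, 932 several and 9160 none. Probe sets with a mean under the 40th percentile (5.62) were not tested. Group means over all 6 arrays were fitted by lmFit and eBayes of limma 3.58.1 under R 4.3.3 (3 residual and 6.43 prior degrees of freedom), two-sided, with Benjamini-Hochberg adjustment over 27022 probe sets. The fit was tested on simulated data. The genes and lists were chosen with earlier results of these data known. Named were the 8 genes and up to 4 called list genes per list and comparison with an absolute log2 change of at least 1, as well as the 5 genes nearest to each of Fshr and Rgs2 in pattern. Equal replicate numbers were not taken as pairs, since the labels name no shared collection. Alternatives covered normalization, filter, probe set choice, model and each array left out, and other probe sets for the subunit differences were added after their values were seen.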

Additional observations from a re-analysis of the deposited data

How the results depend on the processing

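For the 7 measured genes, 315 alternative values of 21 results were computed. Of these 286 kept their direction and their side of the adjusted p threshold of 0.05, 18 lost a call, 6 gained one and 5 changed sign. The sign changes were all in uncalled differences between 8 h and 16 h. With the mean over all of a gene's named probe sets, that difference was 0.0123 for Prkacb and −0.0301 for Prkar1a, and with 1 array left out it ranged from −0.0752 to 0.0129 for Prkacb and from −0.0410 to 0.0663 for Prkar1a. The number of genes called, with 1 array left out, ranged from 2 to 4 of 7 at 8 h against no hCG and from 1 to 2 at 16 h against 8 h. The probe sets called ranged from 6109 to 9450 and from 2518 to 6340. Rgs2 at 16 h against no hCG was called with an intensity trend and robust prior (adjusted p = 0.0343) and without no hCG replicate 2 (0.0481). Prkar2b at 8 h was also called with the mean over its probe sets (adjusted p = 0.0316) and without probe sets marked as cross-hybridising (0.0312). With the replicate block, 5 genes were called at 8 h, 5 at 16 h against no hCG and 2 at 16 h against 8 h, and none of the 21 results gained or lost a call. Deviations of same-numbered arrays correlated at 0.47, 0.00103 and 0.13 in these comparisons. Having 2 arrays in each group limits how precise each value is.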
